A study of Mus musculus with 28 samples.

Results

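Imprinted genes are described here in mouse kidney cells of one origin, as 45 genes named by symbol from 19 imprinted domains. Each was found by its Ensembl identifier in both expression tables, so that all 45 of the 45706 genes listed were located. The cells are mIMCD-3, an immortalised epithelial line of the mouse derived from the kidney, from collecting ducts of the inner medulla. RNA sequencing was performed on 28 libraries of unedited wild-type cells, with 4 from each of 7 cell populations. Polyclonal cells are the line as it was obtained. WT5 is a monoclonal line grown from 1 sorted polyclonal cell, and subclones 1 to 5 were each grown from 1 sorted WT5 cell. All cells were grown in the same medium without any drug and were harvested after reaching full confluency. Each of the 6 sorted lines is a single clone, so a value describes that clone and its descendants.

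An imprinted gene is transcribed mainly from the copy inherited from one parent. The choice is set by DNA methylation laid down in egg or sperm at an imprinting control region, which then governs a cluster of genes, often through a long noncoding RNA. Because only 1 copy is active, the loss or gain of a single mark can switch a whole gene off or raise its output, and many of these genes govern growth before birth. Expression tables give the sum over both copies, so the parental origin named below is background from the mouse and was not measured here.

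Values are TPM, which scale each library to the same total and each gene by its transcript length, so that levels of genes can be compared. Depth is unknown because TPM keeps no read numbers, and counting error could not be given. The 4 libraries of each population are called biological replicates in the methods of the study and technical replicates in a legend, so p-values may measure technical spread only. Polyclonal libraries were read as shorter single-end reads and WT5 libraries as longer paired-end reads, and they were sequenced at different times. Line, read type and time of sequencing therefore cannot be told apart. The polyclonal libraries listed 18681 to 19272 genes above 0, against 16270 to 17004 in the other lines. Of 13 tubule epithelium markers, 12 reached a mean of 1 TPM in polyclonal cells and 9 in each other line, and Aqp2, the collecting duct water channel, was listed at 0 in every library. Summed levels of these markers were 1892 to 2193 TPM in polyclonal, 3321 to 3404 TPM in WT5 and 2100 to 2644 TPM in subclone libraries. Single markers went both ways. By the fold rule given below, which called 23.3% of all genes, 2 of 12 tested were higher in WT5 (Krt8, Cdh16) and 3 lower (Gata3, Scnn1a, Avpr2). Krt8 was at 322.61 to 381.53 TPM in polyclonal and 963.3 to 1048.4 TPM in WT5 libraries. Avpr2 was at 9.7 to 10.97 and 0.01 to 0.17 TPM, and Gata3 at 2.63 to 5.06 and 0.03 to 0.05 TPM. The 10 fibroblast, endothelial and leukocyte markers summed to 2.20 to 5.51 TPM per library. The leukocyte marker Cd68 was at 1.45 to 4.52 TPM, and the fibroblast marker Col1a1 reached 2.06 TPM in WT5 replicate 4. The endothelial marker Cdh5 did not exceed 0.01 TPM, and the T cell marker Cd3e was listed at 0 throughout.

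Of the members, 3 were at 0.22 TPM or less in all libraries of 1 population and at 1.44 TPM or more in every other library. These were Grb10 and Phlda2 in polyclonal cells and Snrpn in subclone 2. Both limits are values of Phlda2 itself, and the share of all genes within them was not counted. By another rule, 0 in all libraries of 1 population and 1 TPM or more in every other library, 8 of 45706 genes were found for polyclonal cells. It gave 2 for WT5 and 2 for subclone 2. Snrpn met this other rule in subclone 2. Grb10 and Phlda2, above 0 in some polyclonal libraries, did not meet it and are not among the 8. The annotated start regions of Grb10 and Snrpn, which had the widest gaps in TPM, are shown for their sequence context. Grb10 encodes an adaptor that binds insulin and insulin-like growth factor receptors and restrains growth, and is expressed from the maternal copy outside the brain. Snrpn encodes a protein of the small nuclear ribonucleoproteins that splice RNA, and is expressed from the paternal copy. Sequences are from RefSeq on GRCm38.p6, minus strand, from 250 bases before to 50 bases after an annotated start. Capitals mark TGCCGC or its reverse complement GCGGCA, the core motif that the imprint maintenance protein ZFP57 binds when methylated.
Grb10, first start, chr11:12027922-12028221: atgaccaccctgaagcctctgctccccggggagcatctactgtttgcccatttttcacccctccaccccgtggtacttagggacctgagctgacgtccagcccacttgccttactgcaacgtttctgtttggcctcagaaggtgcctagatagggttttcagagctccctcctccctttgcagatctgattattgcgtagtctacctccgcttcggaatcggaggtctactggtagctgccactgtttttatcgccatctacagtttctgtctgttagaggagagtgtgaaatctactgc
Grb10, second start, chr11:12037371-12037670: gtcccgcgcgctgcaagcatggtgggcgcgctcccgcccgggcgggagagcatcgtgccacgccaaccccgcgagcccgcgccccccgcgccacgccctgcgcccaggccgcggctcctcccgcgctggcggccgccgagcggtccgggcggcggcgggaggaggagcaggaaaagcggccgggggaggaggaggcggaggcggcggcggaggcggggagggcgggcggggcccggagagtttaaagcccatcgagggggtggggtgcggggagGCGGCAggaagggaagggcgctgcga
Snrpn, first start, chr7:60005150-60005449: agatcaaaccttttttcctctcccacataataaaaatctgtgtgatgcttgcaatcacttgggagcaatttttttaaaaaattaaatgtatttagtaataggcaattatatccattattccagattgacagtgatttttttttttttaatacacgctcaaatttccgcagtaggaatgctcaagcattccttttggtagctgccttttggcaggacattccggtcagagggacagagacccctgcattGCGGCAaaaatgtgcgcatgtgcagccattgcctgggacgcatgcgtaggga

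The second Grb10 start region held 45 CpG dinucleotides and 1 motif, whereas the first held 9 CpG and no motif. The Snrpn region shown held 7 CpG and 1 motif, and the other 3 annotated Snrpn starts held 2 to 4 CpG and no motif. Start regions were at hand for 36 of the 45 members, in 53 windows of 300 bases. The median was 15 CpG per window, compared with 7 over all 32851 windows of the table. The motif was present on either strand in 24.5% of member windows and in 11.6% of all windows. Some windows overlap, such as those of Mest starts 2 and 3, and each was counted. The motif itself holds a CpG, and the shares were not adjusted for CpG content. These are counts of letters, and neither methylation nor binding was measured.

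Expression of the set was divided. A mean of at least 1 TPM in some population was reached by 26 members, and 19 stayed under 1 TPM in each of the 7. At the upper end, 13 members had a mean of 10 TPM or more in every population. Gnas, which encodes the stimulatory G protein alpha subunit, was the most abundant member, with means between 483 TPM in polyclonal and 670 TPM in WT5 cells. Commd1, Nap1l4, H13, Sgce, Tssc4 and Copg2 followed with means between 39.9 and 98.1 TPM. Several are broadly expressed neighbours within imprinted domains, such as the nucleosome assembly factor Nap1l4 and the coatomer subunit Copg2.

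At the lower end, 13 members did not exceed 0.12 TPM in any library, and 6 of them were listed at 0 in all 28. The 6 were Dlk1, Meg3, Mirg, Magel2, Rasgrf1 and Zdbf2. The domain of Dlk1 and Dio3, which holds the growth regulator Dlk1 and the long noncoding RNAs Meg3, Rian and Mirg, had 0 of 6 members at 1 TPM in any population. In the domain of Snrpn, Ndn and Magel2 were near 0 as well, while the ubiquitin ligase Ube3a, which is imprinted mainly in neurons, had means of 23.1 to 29.0 TPM. Igf2, the fetal growth factor that shares its control region with H19, did not exceed 0.63 TPM. Most of its sequence, 75.9% by 50-base words, is shared with another gene model of a later annotation. Whether this sharing affected the level given here was not tested.

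**Figure D1:**
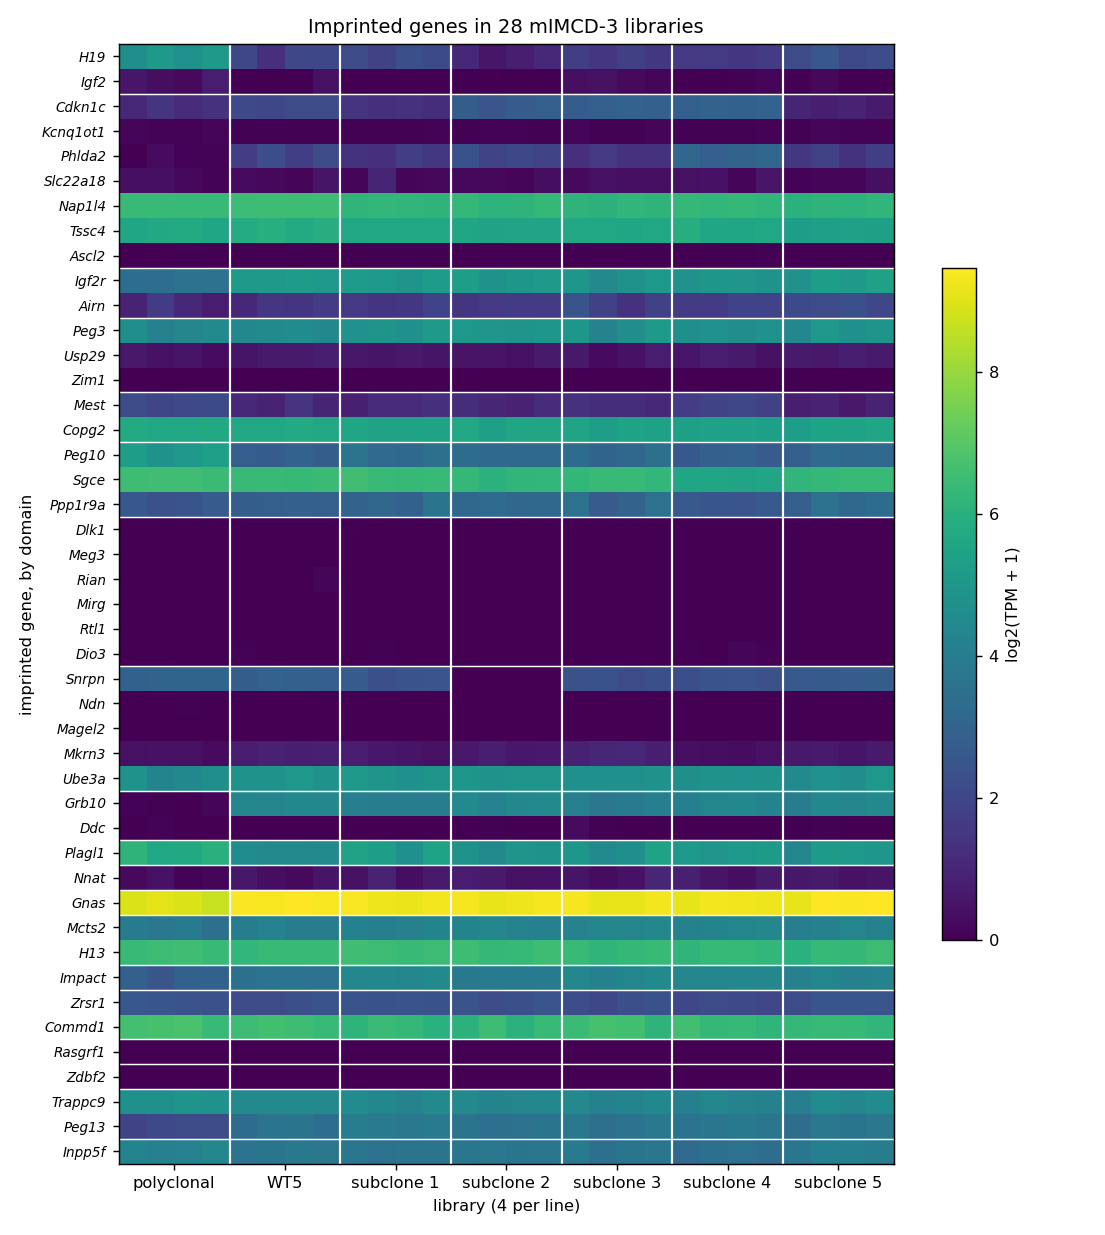
Level of the 45 imprinted genes (rows, grouped by domain between white lines) in 28 libraries (columns, 4 per population), as log2(TPM + 1) in colour. Gnas is the brightest row, the rows from Dlk1 to Dio3 are dark throughout, Grb10 is dark only in the 4 polyclonal libraries and Snrpn in the 4 subclone 2 libraries.

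The first comparison asked how WT5 cells differ from the polyclonal cells they were sorted from. Of 29 imprinted genes tested, 9 differed at least 2-fold. Igf2r, Peg13, Cdkn1c and Mkrn3 were higher in WT5, and H19, Peg10, Mest, Plagl1 and Kcnq1ot1 were lower. For this test log2(TPM) was standardised within each library over the 13723 genes above 0 in all 8 libraries and compared by limma. A gene passed the fold rule when its scaled log2 difference exceeded 1 in size and its adjusted p-value was below 0.01. The rule called 3200 genes or 23.3% of those tested, and 31.0% of the members tested, so the share of members was not far from that of all genes. Higher levels in WT5 were called for 12.4% and lower levels for 10.9% of all genes. An adjusted p-value below 0.01 at any size was reached by 18 of 29 members and by 65.5% of all genes. Libraries of the groups did not overlap for 18 of the 29 members, and for 72.3% of all genes. The median difference was -0.13 over the members and 0.03 over all genes.

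Lower levels in WT5 led by size. H19, the maternally expressed long noncoding RNA that is abundant in the embryo and largely silenced after birth, measured 25.41, 32.75, 26.49 and 33.03 TPM in polyclonal libraries. In WT5 it measured 3.08, 1.44, 3.02 and 3.16 TPM. Every WT5 library was below every polyclonal library, and the polyclonal mean was 11.0 times the WT5 mean (log2 difference -3.75, SE 0.28, limma adjusted p = 8.70e-06). H19 alone of the members also passed the stricter size rule of the study, a difference of 1 in z-score, which is 8.56-fold here and called 5.43% of all genes.

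Peg10, a paternally expressed gene derived from a retrotransposon and needed by the placenta, was at 38.46, 27.04, 31.73 and 39.61 TPM in polyclonal cells. The WT5 libraries had 6.30, 5.67, 6.80 and 5.96 TPM. The groups did not overlap (log2 difference -2.68, SE 0.13, limma adjusted p = 1.15e-06). Sgce, which starts next to Peg10 and encodes a sarcoglycan, differed far less, with 91.0 ± 3.51 TPM (SD, n = 4) in polyclonal and 82.5 ± 2.34 TPM (SD, n = 4) in WT5 cells. Among 21 other genes within 5 Mb of Peg10 the median difference was -0.73, on the same scaled log2 measure.

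Plagl1, a zinc finger transcription factor that slows growth, measured 70.90, 49.09, 52.12 and 63.63 TPM in polyclonal libraries. Its WT5 levels were 23.03, 20.99, 21.02 and 21.27 TPM. All WT5 libraries were again below the polyclonal ones (log2 difference -1.65, SE 0.13, limma adjusted p = 1.25e-05). Mest, which encodes a membrane protein of the hydrolase fold and is expressed from the paternal copy, was at 3.60, 2.94, 3.30 and 3.37 TPM in polyclonal cells. WT5 cells had 1.10, 0.91, 1.65 and 0.98 TPM. The ranges were separate (log2 difference -1.79, SE 0.18, limma adjusted p = 4.69e-05), whereas Copg2, which overlaps Mest on the other strand, had means of 50.9 and 50.6 TPM. The antisense RNA Kcnq1ot1, which silences its domain on the paternal copy, was called lower in WT5 at 0.06 to 0.09 against 0.03 TPM (log2 difference -1.60), but its difference turned to 0.070 with a pseudocount of 0.1 and all genes above 0 in any library.

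Among members higher in WT5, Igf2r led. It encodes the receptor that sorts lysosomal enzymes and clears insulin-like growth factor 2. Polyclonal libraries had 9.66, 9.49, 11.08 and 10.46 TPM, and WT5 libraries 32.88, 33.96, 35.60 and 31.67 TPM. The WT5 mean was 3.30 times the polyclonal mean without overlap (log2 difference 1.5, SE 0.05, limma adjusted p = 2.16e-07). Airn, the paternal antisense RNA that represses Igf2r, had overlapping values of 0.64 to 2.14 TPM in polyclonal and 1.07 to 2.22 TPM in WT5 cells (log2 difference 0.36, SE 0.39, limma adjusted p = 0.425).

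Peg13, a noncoding RNA from an intron of Trappc9, was at 2.88, 3.25, 3.49 and 3.58 TPM in polyclonal and at 9.26, 11.15, 11.41 and 9.64 TPM in WT5 libraries. It rose without overlap (log2 difference 1.42, SE 0.09, limma adjusted p = 3.66e-06), while its host Trappc9 had a difference of -0.51 (SE 0.04). Cdkn1c encodes p57, a maternally expressed inhibitor of cyclin-dependent kinases. It measured 1.13, 1.73, 1.21 and 1.56 TPM in polyclonal cells and 3.23, 3.02, 3.46 and 3.63 TPM in WT5. The ranges were apart and the difference was 1.02 (SE 0.16, limma adjusted p = 0.000540), but it lay just above the size limit, at 0.90 without polyclonal replicate 1, at 0.92 without polyclonal replicate 3 and at 0.66 with a pseudocount of 1. Mkrn3, a ring finger gene linked to the timing of puberty, was likewise near the limit at 1.02. It fell under the limit at 0.22 with a pseudocount of 1 and at 0.77 without polyclonal replicate 4, and the unequal-variance test did not call it. Its level was under 1 TPM in both groups.

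Grb10 and Phlda2 could not enter the test because 1 polyclonal library of each was at 0, yet they stood furthest apart on the TPM scale relative to their level. Grb10 was at 0.06, 0.04, 0 and 0.11 TPM in polyclonal libraries. WT5 libraries had 19.45, 18.83, 20.45 and 19.56 TPM, and the 20 subclone libraries 12.32 to 21.50 TPM. No polyclonal library came near any other. The difference was 7.33 (SE 0.21) on log2(TPM + 0.1). A gene at 0 in one group is admitted to a test only through the group where it is high, so no p-value is given for such genes. Cobl, a further imprinted gene to one side, had means of 44.9 TPM in polyclonal and 37.1 TPM in WT5 cells, and Fignl1, the nearest tested gene on the other, 68.6 and 58.8 TPM. Sec61g, a subunit of the protein translocation channel and the next tested gene beyond Cobl outside the imprinted lists, lies 4462 kb away and was called higher in WT5, with means of 23.99 and 194 TPM (log2 difference 2.82, limma adjusted p = 5.82e-08). All of these neighbours were expressed in polyclonal cells. The 11 other tested genes within 5 Mb had a median difference of 1.28.

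Phlda2, a maternally expressed gene that restrains placental growth, was at 0, 0.22, 0.06 and 0.07 TPM in polyclonal cells. WT5 libraries had 2.31, 3.86, 2.36 and 3.45 TPM. The groups did not overlap (difference 4.49 on log2(TPM + 0.1), SE 0.38).

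**Figure D2:**
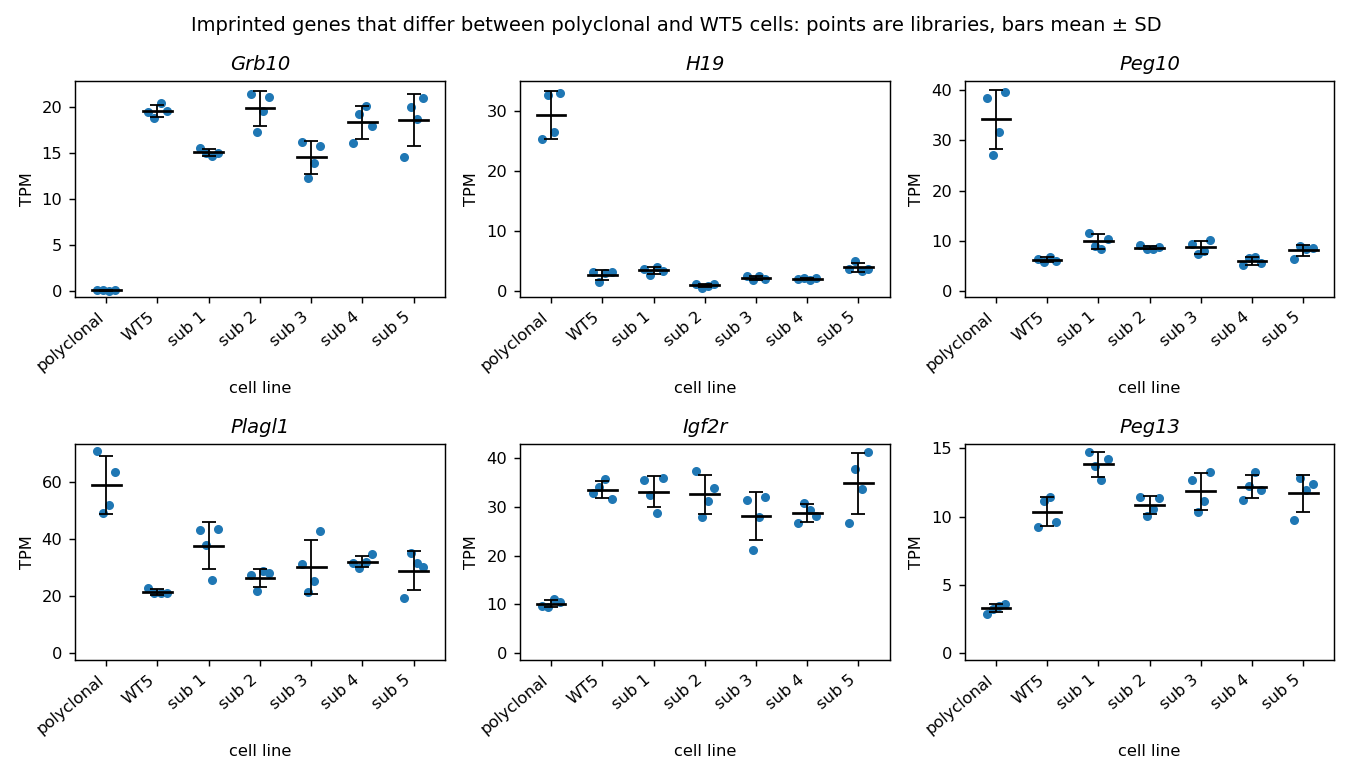
TPM of 6 imprinted genes in each library (points), with mean and SD (bars, n = 4), by cell line on the horizontal axis (sub, subclone). Grb10 is at 0.11 TPM or less in polyclonal cells and at 12.32 TPM or more elsewhere, H19, Peg10 and Plagl1 are highest in polyclonal cells, and Igf2r and Peg13 lowest.

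Calls fell among members of either parental origin. Of 12 maternally expressed members tested, 2 were higher and 1 was lower in WT5, and of 16 paternally expressed ones 2 were higher and 4 lower. Over all genes 12.4% were called higher and 10.9% lower. Counts this small cannot tell the origins apart from each other or from all genes. Grb10 and Phlda2, maternally expressed and higher in WT5, are not in these counts. Neighbouring imprinted genes went separate ways, as did H19 and Cdkn1c on chromosome 7. Members with no detectable change on the scaled measure included Peg3, the zinc finger gene that heads its own domain (difference -0.13, SE 0.13), and Tssc4 (difference 0.00, SE 0.06). In TPM, Tssc4 was at 45.75 to 53.6 in polyclonal and 53.94 to 60.49 in WT5 libraries, higher without overlap. Without standardisation the median of all genes moved from 0.03 to 0.24, and calls over all genes moved from 1700 higher and 1500 lower to 2327 higher and 1174 lower. The members kept 4 higher and 5 lower calls under both scalings.

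**Figure D3:**
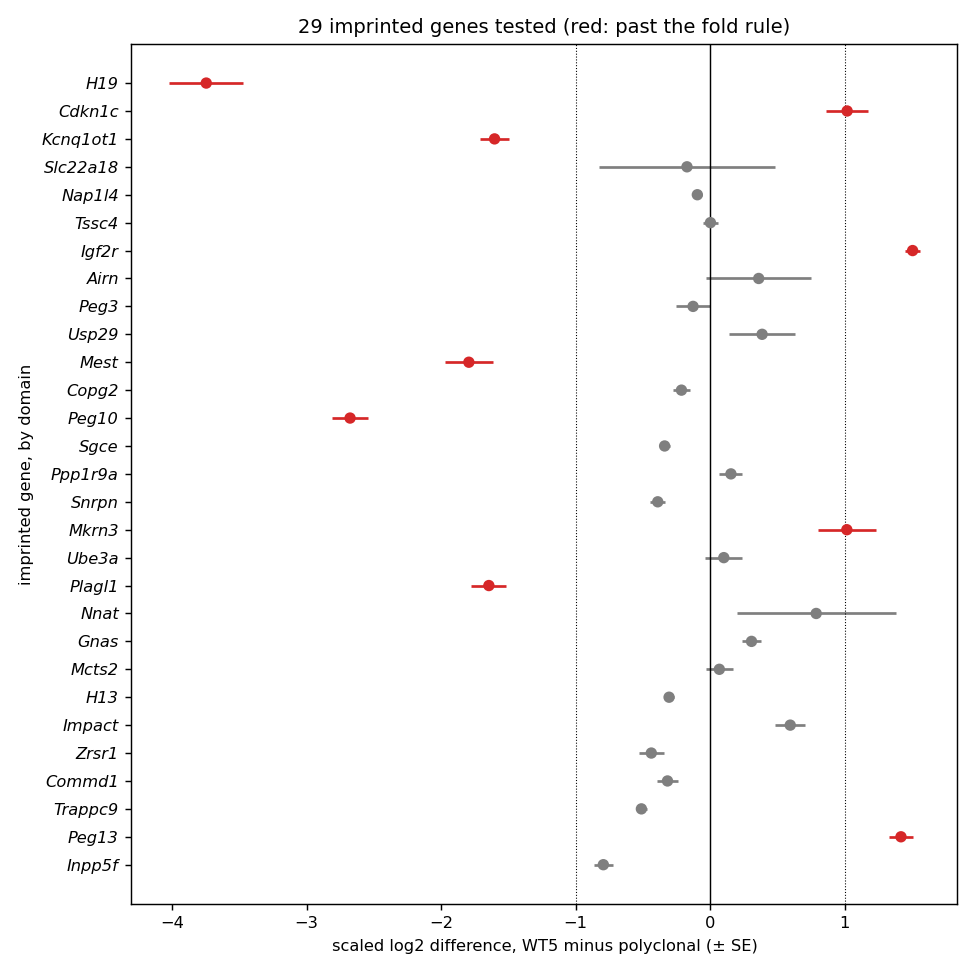
Scaled log2 difference, WT5 minus polyclonal, for the 29 imprinted genes tested (points, with bars of 1 SE), in domain order. Red marks the 9 past the fold rule, dotted lines a difference of 1 in size; H19 lies furthest left at -3.75 and Igf2r furthest right at 1.5.

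Further genes gave context to this comparison. The fold rule called 23.3% of all genes here. Of 38 other imprinted genes 36 were listed and 19 tested, and 3 were higher and 3 lower in WT5 by the fold rule. Among them Pdk4, a kinase that limits pyruvate use, rose from 0.19 to 0.33 TPM to 2.72 to 3.78 TPM (log2 difference 3.36, limma adjusted p = 1.29e-06). Kcnq1, the potassium channel gene in which Kcnq1ot1 lies, fell from 0.74 to 0.87 TPM to 0.09 to 0.15 TPM (log2 difference -3.11, limma adjusted p = 2.10e-06). Of 7 genes for maintenance of imprints, 1 passed the fold rule, a count too small to set apart from the 23.3% of all genes. It was Zfp445, with 6.52 to 10.5 TPM in polyclonal and 21.24 to 23.64 TPM in WT5 libraries (log2 difference 1.19, limma adjusted p = 6.47e-05). Zfp57 had means of 7.41 and 10.1 TPM (log2 difference 0.22, limma adjusted p = 0.176). Dnmt1, the maintenance DNA methyltransferase, had 55.6 and 98.8 TPM (log2 difference 0.63). Trim28 went the other way, from 374.51 to 425.47 TPM in polyclonal to 245.51 to 256.41 TPM in WT5 libraries (log2 difference -0.85, limma adjusted p = 4.54e-06). The scaled differences of Ctcf, Setdb1 and Uhrf1 were 0.40, -0.12 and -0.07. In TPM, Setdb1 was at 44.74 to 49.51 in polyclonal and 47.04 to 51.39 in WT5 libraries. Uhrf1 was at 153.69 to 172.86 and 171.29 to 176.85 TPM. Both ranges overlapped but lay higher in WT5, opposite to the sign of their scaled differences. The nearest tested gene to H19, Mrpl23, had means of 5.52 TPM in polyclonal and 138 TPM in WT5 cells. Its pseudogene Mrpl23-ps1, with which it shares sequence, had 106 and 3.60 TPM, so the division of reads between the pair is uncertain.

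The second comparison asked how far each subclone departed from WT5. Few imprinted genes did so. In the test over 13860 genes above 0 in all 24 libraries, 30 members entered and 1, 1, 0, 3 and 3 of them passed the fold rule in subclones 1 to 5, where 3.10%, 2.62%, 3.66%, 4.80% and 3.39% of all genes did. The z-score rule called 0 members in each by limma, and 0.152%, 0.144%, 0.173%, 0.202% and 0.173% of all genes. Unadjusted limma p-values below 0.05 were reached by 15 to 19 of the 30 members, without regard to size, and by 51.0%, 51.5%, 46.2%, 59.0% and 49.1% of all genes, and the unequal-variance test also called 0 by the z-score rule. Subclones and WT5 stand in separate tables, so a difference shared by all subclones cannot be told apart from a difference between tables. Impact, a paternally expressed regulator of the stress response, was of this kind. It was higher in all 5 subclones by 0.40 to 0.93, under the size limit, with means of 10.8 TPM in WT5 and 13.9 to 20.3 TPM in the subclones.

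The members called against WT5 were Cdkn1c, lower in subclones 1 (-1.19) and 5 (-2.07), H19, lower in subclone 2 (-1.70), and Phlda2 (1.24), Mest (1.15) and Mkrn3 (-1.51) in subclone 4. Airn (1.08) and Kcnq1ot1 (1.03) were higher in subclone 5, each just past the limit. With a pseudocount of 1, 6 of these 8 calls were lost, and Cdkn1c in subclone 5 and Phlda2 in subclone 4 were kept. The unequal-variance test lost 5, leaving Cdkn1c in subclone 1 and Phlda2 and Mkrn3 in subclone 4. H19 lost its call in subclone 2 when any of 7 of the 8 libraries was left out, at -1.47 to -1.85. The exception was WT5 replicate 2, whose value of 1.44 TPM was the lowest of its group. Airn lost its call in subclone 5 without any of 7 libraries, at 0.88 to 1.16, and Kcnq1ot1, at 0.10 TPM or less throughout, lost it without subclone 5 replicate 2, at 0.90. In subclone 3, Cdkn1c passed at 1.01 without subclone 3 replicate 1 and Phlda2 at -1.08 without subclone 3 replicate 2.

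The third comparison, among the 5 subclones, stayed within 1 table. Of 30 members tested over 14031 genes, 5 passed the fold rule, with a moderated F test and a range of subclone means above 1, where 5.32% of all genes did. They were Cdkn1c, H19, Phlda2, Mest and Mkrn3. By adjusted p-value alone 14 members and 24.6% of genes passed, and the z-score rule called 0 members and 0.613% of genes in limma, with 18 members and 46.7% of genes at an unadjusted p below 0.05. The unequal-variance test also called 0 members by the z-score rule. The median range was 0.49 over the members and 0.29 over all genes.

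Cdkn1c spread most. Subclone 5 had 0.99, 0.72, 0.93 and 0.62 TPM, and subclone 1 had 1.68, 1.39, 1.54 and 1.37 TPM. Subclone 2 had 6.0, 4.69, 5.70 and 6.26 TPM. The other two were at 5.68 to 6.91 TPM in subclone 3 and 6.33 to 7.04 TPM in subclone 4. The lines thus lay on either side of WT5 at 3.02 to 3.63 TPM, with no subclone library inside the WT5 range, and subclone 3 overlapped both subclones 2 and 4, which did not overlap each other. The means ranged 8.27-fold, from 0.815 to 6.74 TPM (log2 range 3.00, limma adjusted p = 3.95e-10). Of 78 other genes within 5 Mb, the median difference of each subclone from the other 4 was between -0.02 and 0.04.

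H19 and Phlda2 lie near Cdkn1c on chromosome 7 but ordered the subclones differently. H19 was at 1.08, 0.50, 0.73 and 1.12 TPM in subclone 2, below all other subclone libraries. Subclone 5 had 3.61, 5.00, 3.26 and 3.66 TPM and subclone 1 had 2.67 to 3.91 TPM, which overlapped, while subclones 3 and 4 lay between at 1.82 to 2.43 TPM. The range was 2.27 (limma adjusted p = 1.42e-06). Phlda2 was at 7.67, 6.06, 7.13 and 7.71 TPM in subclone 4, above every other library of the study. The other subclones had 1.44 to 4.26 TPM (log2 range 2.12, limma adjusted p = 8.54e-07).

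Mest was likewise highest in subclone 4, at 2.32, 2.83, 3.06 and 2.54 TPM, where the other subclones had 0.58 to 1.53 TPM. Those values did not overlap (log2 range 1.75, limma adjusted p = 2.17e-05). Mkrn3 was lowest in subclone 4 at 0.31, 0.28, 0.25 and 0.36 TPM and highest in subclone 3 at 0.74 to 1.14 TPM, which overlapped subclone 2 at 0.52 to 0.75 TPM. Its range of 1.66 (limma adjusted p = 0.000252) rested on levels near or under 1 TPM and shrank to 0.58 with a pseudocount of 1.

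Snrpn showed the sharpest pattern and, having zeros, stood outside the test. All 4 subclone 2 libraries listed it at 0. Subclone 1 had 5.61, 4.00, 4.33 and 4.61 TPM, and subclones 3, 4 and 5 had 3.50 to 5.93 TPM. WT5 had 5.87 to 6.96 TPM and polyclonal cells 6.65 to 7.38 TPM, so 24 libraries were at 3.50 TPM or more and 4 at 0. Of the 45706 genes, 2 were at 0 in all subclone 2 libraries and at 1 TPM or more in every other library, and Snrpn was 1 of them. Subclones 1, 3 and 4 were below every WT5 library as well, but by far less. A TPM of 0 can also be a failed estimate where genes share sequence, and 11.0% of the 50-base words of Snrpn are shared, mainly with the overlapping Snurf.

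Neighbouring transcripts were read beside it. Gm38393, which overlaps Snrpn, was at 0 in the 4 subclone 2 libraries and at 0.54 to 1.52 TPM in WT5 and the other subclones, but also low in polyclonal cells, at 0.04 to 0.18 TPM, where Snrpn was highest. Snhg14, the long noncoding RNA that runs on from Snrpn and carries small nucleolar RNAs, had 0.03, 0.02, 0 and 0.01 TPM in subclone 2 and 0.61 to 3.54 TPM elsewhere. Among WT5 and the subclones, both were thus lowest where Snrpn was at 0. Snurf, which shares 94.0% of its words, was at 0 in subclone 2 but also in all WT5 and subclone 3 libraries, so its value could not be read on its own. Ube3a, at the far end of Snhg14 on the other strand, was at 27.47 to 31.43 TPM in subclone 2, within the range of the other lines. Mkrn3, a further paternally expressed gene of the domain, was at 0.52 to 0.75 TPM there. Levels at or near 0 in subclone 2 were thus seen for Snrpn, Gm38393 and Snhg14 and not for Mkrn3 or Ube3a. Herc2 and Klf13, the nearest tested genes outside the domain, lie 3751 and 3746 kb from Snrpn. In subclone 2 they did not differ detectably from WT5 (differences 0.02, SE 0.06, and 0.00, SE 0.08).

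**Figure D4:**
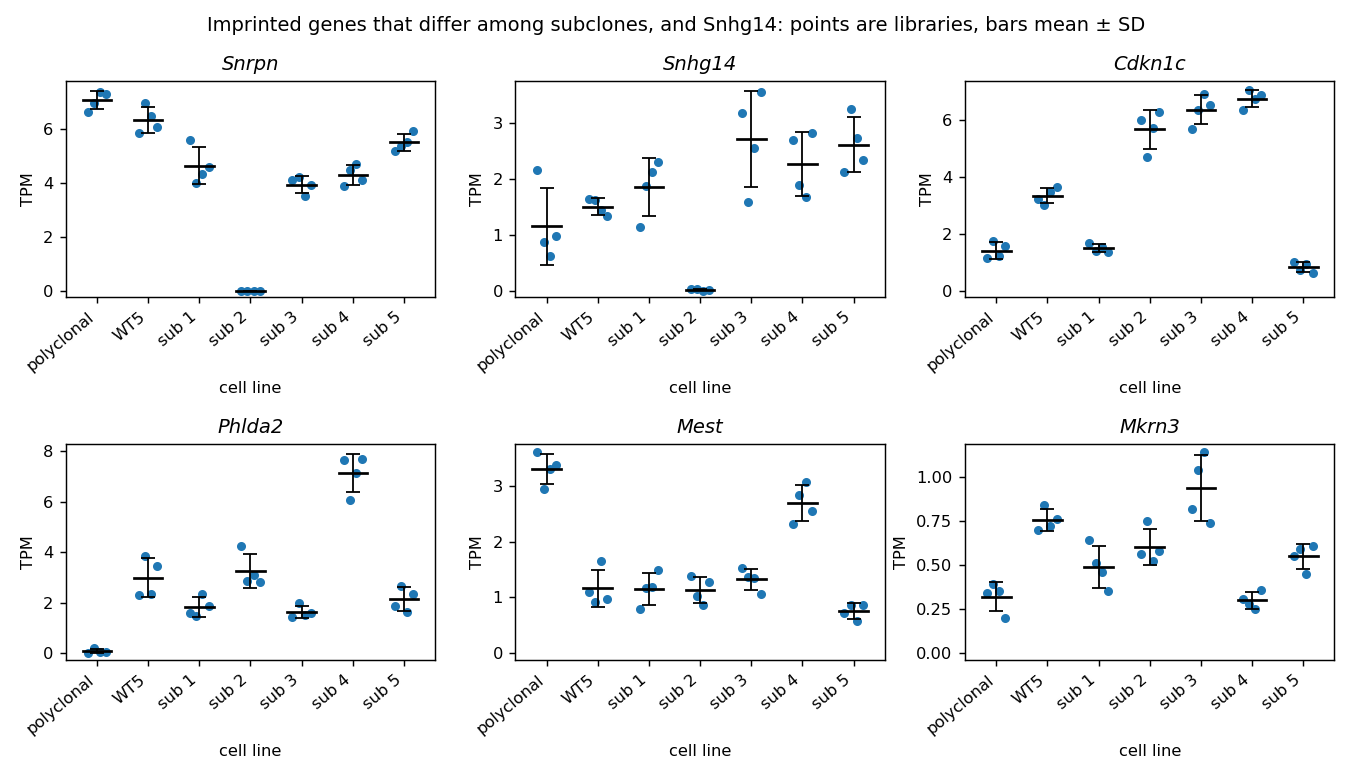
TPM in each library (points), with mean and SD (bars, n = 4), for 5 imprinted genes that differ among the subclones and for Snhg14, by cell line (sub, subclone). Snrpn and Snhg14 are at or near 0 only in subclone 2, Cdkn1c is low in subclones 1 and 5, and Phlda2 and Mest are highest among subclones in subclone 4.

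Among the subclones, subclone 4 also had the lowest mean of each member of the Peg10 domain. Sgce was at 46.10, 46.14, 44.50 and 47.55 TPM there and at 64.83 to 92.39 TPM in the other subclones. Peg10 had 5.03 to 6.77 TPM against 6.36 to 11.55 TPM, with some overlap, and Ppp1r9a, which encodes the actin-binding protein neurabin, 4.60 to 5.41 TPM against 5.58 to 11.52 TPM. Against the other 4 subclones together the differences were -0.78 (SE 0.04), -0.59 (SE 0.07) and -0.76 (SE 0.13), with limma adjusted p of 1.10e-09, 1.16e-05 and 0.000182, all under the size limit of 1. Peg10 and Sgce are expressed from the paternal and Ppp1r9a from the maternal copy, and all had a similar difference from the other subclones. Against WT5, subclone 4 differed by -0.73 for Sgce, -0.35 for Ppp1r9a and -0.09 (SE 0.10, limma adjusted p = 0.513) for Peg10. The other subclones differed from WT5 by -0.08 to 0.11 for Sgce, 0.37 to 0.48 for Ppp1r9a and 0.42 to 0.66 for Peg10.

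Genes around them were also lower than in the other subclones. Of 13 other tested genes within 2000 kb of Peg10, 10 were lower and 1, Pdk4, was higher in subclone 4 at an adjusted p-value below 0.01, with a median difference of -0.60. This window and the chromosome-wide share below leave out only the 45 members. Pon2, Pon3, Asb4 and Pdk4, from the list of other imprinted genes, are therefore counted in them. Along chromosome 6 in stretches of 10 Mb, the median was -0.52 and -0.56 in the first 2 stretches, the first of which holds the Peg10 domain, and -0.60 to -0.48 in the 6 stretches from 70 to 130 Mb. It was between -0.05 and 0.04 in the 3 stretches from 20 to 50 Mb, and 0.27 and 0.44 in the next 2. Mest lies in one of these, the stretch from 30 to 40 Mb, and its difference of 1.29 from the other subclones (SE 0.15, limma adjusted p = 4.56e-06, in a test whose fold rule called 1.87% of genes) stood beside a median of -0.05 among 59 other genes within 5 Mb. Over all genes tested, 9.77% were lower in subclone 4 at that p-value, compared with 47.6% of the 657 other genes on chromosome 6. These surroundings were examined after the values had been seen, and the number of chromosome copies was not measured in these data.

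**Figure D5:**
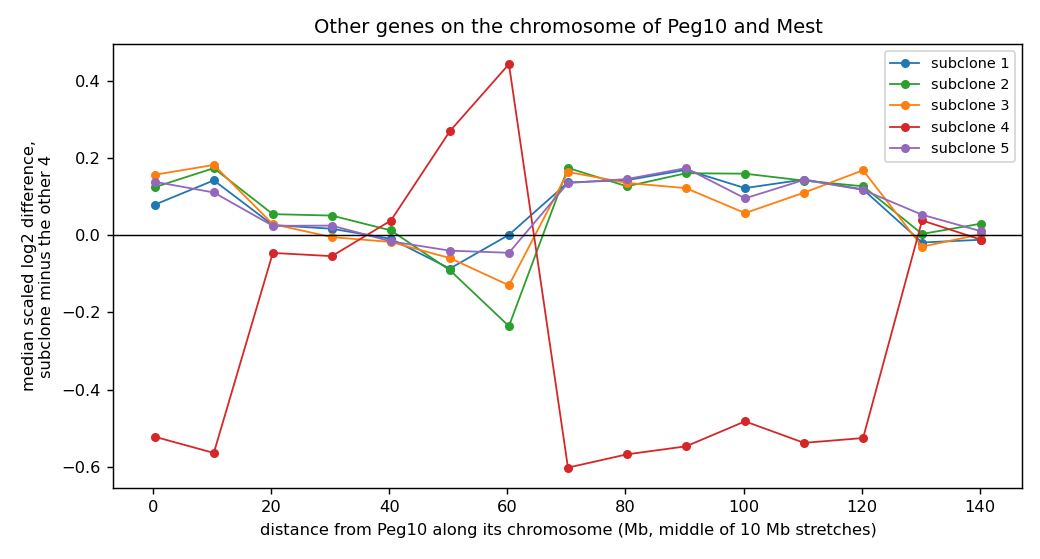
Median scaled log2 difference of each subclone from the other 4, over the genes of 10 Mb stretches of chromosome 6 other than imprinted ones, against distance from Peg10 in Mb. Subclone 4 (red) is at about -0.5 to -0.6 in the stretches around Peg10 and further along, near 0 in the stretches that include Mest, and up to 0.44 in between.

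Of the other imprinted genes tested among the subclones, 2 of 19 passed the fold rule, which called 5.32% of all genes. They were Pdk4 (log2 range 1.42) and Dcn (2.37). Dcn, also a fibroblast marker, was at 0.02 to 0.60 TPM in the subclones. Gatm, the first enzyme of creatine synthesis, had zeros and was not tested. It was at 1.85 to 2.12 TPM in WT5 and at 0 to 0.74 TPM in the 20 subclone libraries, with 3 of the 4 subclone 2 libraries at 0. Of the 7 imprint maintenance genes, 0 passed the fold rule among the subclones or in any subclone against WT5 by limma, with 0 to 4 at an unadjusted p below 0.05. Zfp57 had means of 10.6 to 12.9 TPM in the subclones.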

How the data were processed

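RNA of 28 mIMCD-3 libraries was sequenced by the authors, aligned with STAR 2.7.3a to the GRCm38 genome, annotated by Ensembl 81, and quantified with RSEM 1.3.1, and the TPM values were deposited in a pair of tables, one with polyclonal and WT5 cells and one with the subclones. CASAVA 1.8 is also named in the submitters' processing notes. No count was given, so depth is unknown. Values have 2 decimals, and the lowest above 0 is 0.01. Overlapping genes on opposite strands may not be separable, as strandedness is not given in the sources used here.

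Populations were taken from the labels. log2(TPM) without a pseudocount was standardised within each library over genes above 0 in all libraries of the comparison (8, 24 or 20). Groups were compared by two-sided limma 3.58.1 in R 4.3.3, or by its F test among subclones, with Benjamini-Hochberg adjustment over all genes tested. Scaled log2 differences are z-score differences times the mean SD of log2(TPM). The methods of the study used z-scores and a test with unequal variances; the latter is among the alternatives. Members outside the filter with a group mean of 1 TPM or more are given by their values, without a p-value, since they qualify only through the group where they are high. Scripts were tested on simulated data.

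Values per library are given for members past the fold rule between WT5 and polyclonal cells or among the subclones with a group mean of 1 TPM or more, and for those past the z-score rule. Grb10, Phlda2 and Snrpn, and flanking genes of Grb10 and Snrpn, were added after their values were seen. The members and lists were chosen with earlier results of these data known. Replicate numbers were not taken to pair libraries.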

Additional observations from a re-analysis of the deposited data

Results flagged for a closer look

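In 71 groups of 4 libraries, 2 held a value far from the other 3, and chance alone flags about 1 in 20 groups. H19 in WT5 replicate 2 was at 1.44 TPM beside 3.02 to 3.16 TPM in the other WT5 libraries. Plagl1 in WT5 replicate 1 was at 23.03 TPM beside 20.99 to 21.27 TPM.

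The 5 subclones differed from one another, by the F test of limma and a range of means above 1, in Cdkn1c (log2 range 3.00), H19 (2.27), Phlda2 (2.12), Mest (1.75) and Mkrn3 (1.66). What underlies these differences was not tested.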

How the results depend on the processing

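The fold rule called 9 members between WT5 and polyclonal cells 8 or 9 when any library was left out, 8 by the unequal-variance test, and 6 with a pseudocount of 1 or a mean TPM of at least 1. It called 5 among the subclones, also without any 1 library, 4 with either of those settings and 7 with genes above 0 in any library. Over all genes it called 3200 between WT5 and polyclonal cells and 5943 of 23738 with genes above 0 in any library. Against WT5 it called 363 to 665, compared with 125 to 251 at a pseudocount of 1 and 238 to 425 at a mean TPM of at least 1, and among the subclones 747, compared with 298 and 456. H19, Peg10, Mest, Plagl1, Igf2r and Peg13 kept their calls between WT5 and polyclonal cells under all 14 alternatives, as did Cdkn1c, H19, Phlda2 and Mest among the subclones under all 26. Over 363 refits of 22 called differences, 322 kept the call, 40 kept the direction but lost the call, and 1 changed sign, Kcnq1ot1 between WT5 and polyclonal cells at 0.070.

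Counts by the fold rule against WT5 that moved were as follows. With a pseudocount of 1, 0 members passed in subclones 1 and 2 and 1 in each of subclones 4 and 5. The unequal-variance test gave 0 in subclones 2 and 5. Leaving out 1 library gave 0 to 1 in subclones 2 and 3 and 1 to 3 in subclone 5. The z-score rule between WT5 and polyclonal cells called 2 members, H19 and Peg10, with a pseudocount of 1 or a mean TPM of at least 1, and 2, Grb10 and Phlda2, with a pseudocount of 0.1 and every gene above 0 somewhere. It called 1 to 2 without 1 library, with Phlda2 added without polyclonal replicate 1 and Grb10 without polyclonal replicate 3. For subclone 2 against WT5 it called 1, Snrpn, with genes above 0 in any library. Among the subclones it called 1 without z-scores, Cdkn1c, 1 with genes above 0 in any library, Snrpn, 3 with a mean TPM of at least 1, and 0 to 1 without 1 library, where Cdkn1c passed without subclone 5 replicate 1 or 3. Grb10, Phlda2 and Snrpn enter only where zeros are admitted or the library at 0 is left out. With zeros admitted they qualify through the group where they are high. Their calls in these settings are therefore not taken as support for a difference. The causes of the other changes were not tested.

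With the replicate number as a replicate block, 1 member passed the fold rule in subclone 5 and Phlda2 lost its call in subclone 4. Calls over all genes moved from 429 to 252 in subclone 1 and from 507 to 294 in subclone 3. Members at an adjusted p-value below 0.01 moved from 9, 8, 6, 13 and 10 to 3, 5, 1, 7 and 2 in subclones 1 to 5. Libraries with the same number did not deviate together (correlation -0.33 to 0.15), so they share only a number.

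TPM values carry no depth, so the zeros of Snrpn and Grb10 cannot be given a detection limit, and members under 1 TPM rest on few decimals.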
